A study of Mus musculus with 9 samples.

Results

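The genes described here are 51 genes of mouse chromosome 14 that lie between Wdhd1 and Myh7 in the RefSeq gene order. They were chosen by the measured difference of BALB/cJ from both strains of C57BL/6By background along the gene order, so the BALB/cJ differences of these genes describe the choice and are not evidence for it. Of the 51 genes, 49 were measured, by 99 probe sets that name 1 gene each, out of 18193 genes and 45037 probe sets on the array. Tep1 and Cdh24 have no probe set of their own in the annotation used here. Another 44 genes with probe sets lie between Wdhd1 and Myh7 and are not members, among them olfactory receptor genes, T cell receptor segments, ribonuclease genes and Rpgrip1.

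RNA came from brain hemispheres, cerebellum removed, of naive male mice aged 11 ± 1 weeks. The strains were the inbred C57BL/6ByJ and BALB/cJ, and B6By.C.132.54, whose name places it on a C57BL/6By background with a BALB/c donor contribution. No mouse received a treatment. Each array carried a pool of 10 hemispheres and each strain had 3 arrays, so the 9 arrays represent 90 mice and the spread between arrays is the spread between pools. Values are log2 of the deposited signal intensity of a probe set. The median of all probe sets was 3.97, and a probe set whose mean lies under it is termed dim here, since its signal may be mostly background. Of the member probe sets, 34 were dim. In whole tissue, fewer cells of a type and less RNA per cell cannot be told apart.

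The array medians of the intensity lay between 15.49 and 15.99, and arrays of one strain correlated at a mean of 0.988 to 0.9947. B6By.C.132.54 replicate 3 had the lowest of these correlations and the narrowest spread of values. All 6 neuron markers, all 6 astrocyte markers and all 5 measured oligodendrocyte markers were brighter than the median probe set. Of 5 cerebellum markers, 3 were dim (Car8, Gabra6 and Pcp2). All 5 heart muscle markers were dim, and so were 2 of the 3 measured T cell markers.

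The stretch holds genes of many unrelated functions. Supt16 encodes the large subunit of FACT, a histone chaperone that lets polymerases pass nucleosomes, and Chd8 encodes a chromatin remodelling ATPase whose loss is linked to autism. Mettl3 is the catalytic subunit of the enzyme that writes N6-methyladenosine into RNA, Apex1 is the main endonuclease of base excision repair, and Parp2 makes poly(ADP-ribose) at DNA breaks. Ang and Rnase4 are secreted ribonucleases that are transcribed from a common promoter and spliced to separate coding exons.

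The promoters of 4 genes that the results turn on are shown first: Ttc5 and Supt16 were higher in BALB/cJ, Ang and Chd8 were lower, and Supt16 and Chd8 are direct neighbours. Each sequence is the 250 bases before the annotated start, from RefSeq on GRCm38.p6, read 5′ to 3′ on the gene's strand. Capitals mark matches to the TATA box motif TATAAA, the CCAAT box with those letters, the E-box motif CACGTG and the ETS-type motif CCGGAAG, searched on both strands. None of the 4 motifs overlaps another in these windows. The windows are reference sequence, so they do not show the BALB/cJ alleles.
Ttc5, chr14:50785521-50785770, minus strand: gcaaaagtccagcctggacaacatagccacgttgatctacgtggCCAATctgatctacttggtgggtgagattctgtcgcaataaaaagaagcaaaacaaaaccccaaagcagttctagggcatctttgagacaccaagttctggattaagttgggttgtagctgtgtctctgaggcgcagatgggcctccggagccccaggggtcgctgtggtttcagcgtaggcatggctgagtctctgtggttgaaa
Ang and Rnase4, chr14:51090827-51091076, plus strand: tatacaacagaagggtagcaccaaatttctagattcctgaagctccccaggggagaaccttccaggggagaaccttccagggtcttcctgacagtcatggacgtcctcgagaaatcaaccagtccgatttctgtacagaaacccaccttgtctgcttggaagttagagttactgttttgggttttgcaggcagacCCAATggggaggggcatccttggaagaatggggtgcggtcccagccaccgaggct
Supt16, chr14:52197240-52197489, minus strand: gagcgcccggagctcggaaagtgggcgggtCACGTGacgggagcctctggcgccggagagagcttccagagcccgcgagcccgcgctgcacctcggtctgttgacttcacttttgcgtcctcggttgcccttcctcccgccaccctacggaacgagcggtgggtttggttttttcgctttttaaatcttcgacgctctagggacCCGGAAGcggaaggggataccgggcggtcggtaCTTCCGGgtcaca
Chd8, chr14:52257761-52258010, minus strand: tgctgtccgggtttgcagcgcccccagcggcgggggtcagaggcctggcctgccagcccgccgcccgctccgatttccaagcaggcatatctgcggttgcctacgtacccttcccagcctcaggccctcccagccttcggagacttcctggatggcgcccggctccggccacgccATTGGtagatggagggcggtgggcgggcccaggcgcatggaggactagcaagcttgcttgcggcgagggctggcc

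The Supt16 window held 1 E-box, 2 ETS-type matches and 28 CG dinucleotides, against a median of 6 CG in all 32817 promoter windows. The Chd8 window held 20 CG and 1 CCAAT box, and those of Ttc5 and Ang held 1 CCAAT box each, with 7 and 5 CG. None held a TATA box. In all windows the TATA box was found in 12.4%, the CCAAT box in 33.8%, the E-box in 6.02% and the ETS-type motif in 6.9%. Of the 67 windows of 49 members, 7.46%, 34.3%, 7.46% and 10.4% held them in that order. Ang and Rnase4 share their window, and Rnase4 has a second annotated start downstream. A match says only that these letters are present.

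Supt16 was higher in BALB/cJ. Its brighter probe set (1419741_at) read 7.07, 7.26 and 7.20 on the C57BL/6ByJ arrays, 7.14, 7.19 and 7.00 on the B6By.C.132.54 arrays, and 8.39, 8.62 and 8.43 on the BALB/cJ arrays. The lowest BALB/cJ pool lay above the highest pool of the other strains by more than any strain's own range. BALB/cJ minus the mean of the other strains was 1.33 ± 0.0843 (SE), a 2.52-fold higher signal. The second probe set (1449578_at) differed by 1.30 ± 0.215, but all 6 arrays of the other strains were dim there, so that no size is read from it. With 16 added to each intensity it differed by 0.74, against 1.24 for the brighter one, and was no longer called. It read 3.82, 3.61 and 3.68 in C57BL/6ByJ, 3.31, 3.87 and 3.76 in B6By.C.132.54 and 5.34, 5.30 and 4.29 in BALB/cJ. BALB/cJ replicate 3 lay closest to the other strains but did not overlap them.

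Chd8, the next gene, went the other way. Its brightest probe set (1437297_at) read 7.42, 7.63 and 7.58 in C57BL/6ByJ, 7.33, 7.67 and 7.69 in B6By.C.132.54 and 6.32, 6.80 and 6.75 in BALB/cJ. The 3 BALB/cJ pools lay below all 6 others, and the difference was -0.93 ± 0.124 (SE), or a 1.91-fold lower signal. The other 3 Chd8 probe sets did not follow, with differences of 0.05, 0.21 and 0.12. Of these, 2 were dim and the third (1457712_at) had a mean of 4.21, and the BALB/cJ arrays overlapped the others in each. The Chd8 difference therefore rests on 1 of 4 probe sets, and averaged over the 4 it was -0.14 and not called.

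Between Supt16 and Hnrnpc lies Rpgrip1, which is not a member and whose annotated span overlaps the end of Supt16. Its probe set 1421144_at was between 8.84 and 8.96 on the 6 arrays of the other strains and between 3.04 and 3.29 on the BALB/cJ arrays, while its other 3 probe sets differed by -0.04, -0.03 and 0.21 with overlap. Hnrnpc, which encodes an abundant nuclear RNA-binding protein and lies on the far side of Rpgrip1, showed nothing of that kind. Its brightest probe set read 9.53, 9.53 and 9.56 in C57BL/6ByJ, 9.49, 9.49 and 9.32 in B6By.C.132.54 and 9.29, 9.49 and 9.49 in BALB/cJ, and BALB/cJ overlapped B6By.C.132.54. So 3 consecutive genes (Rpgrip1, Supt16 and Chd8) each had a probe set that differed in BALB/cJ, lower, higher and lower in turn. For Rpgrip1 and Chd8 this was 1 probe set, and their other 3 did not follow. No probe sequences were at hand, so strain variants under the probes of these or other probe sets were not looked at.

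Ttc5 encodes a tetratricopeptide protein that works as a p53 cofactor and in the control of tubulin mRNA. Its bright probe set (1424508_at) read 6.62, 6.58 and 6.54 in C57BL/6ByJ, 6.39, 6.52 and 6.43 in B6By.C.132.54 and 7.07, 7.09 and 7.22 in BALB/cJ. The difference of 0.61 ± 0.0715 (SE), 1.53-fold, was small but lay far outside the narrow spread of the pools. The other Ttc5 probe set was dim, at a mean of 2.83, and the strains overlapped (-0.0015).

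Ang was lower in BALB/cJ. Its brightest probe set (1438936_s_at) read 4.84, 5.14 and 5.23 in C57BL/6ByJ, 4.99, 5.39 and 5.07 in B6By.C.132.54 and 3.43, 4.42 and 3.58 in BALB/cJ. The difference was -1.30 ± 0.196 (SE). BALB/cJ replicate 2 stood nearly 1 log2 unit above the other BALB/cJ pools, and the BALB/cJ mean of 3.81 fell among the dim values, so no fold is given. With 16 added to each intensity the difference was -0.74, beside -0.83 for Chd8. The second Ang probe set (1438937_x_at) was dim throughout, at 3.00, 3.14 and 3.15 in C57BL/6ByJ, 3.06, 3.13 and 3.00 in B6By.C.132.54 and 2.68, 2.92 and 2.65 in BALB/cJ. Its BALB/cJ pools lay below all others, by -0.33 on average, and it was called only with the replicate number as a block. The third (1450717_at) was dimmer still and overlapped between strains. The suffix of the first probe set marks probes that can match several related transcripts, and the angiogenin genes Ang2 and Ang4 lie in the same stretch, so its assignment to Ang alone is uncertain.

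Rnase4, which shares the promoter window printed above, did not show the Ang pattern. Its probe set (1422603_at) read 5.90, 5.80 and 5.73 in C57BL/6ByJ, 5.90, 5.74 and 5.40 in B6By.C.132.54 and 5.90, 5.80 and 5.36 in BALB/cJ. The strains overlapped almost completely and the BALB/cJ difference was -0.06 ± 0.134 (SE). The plot of both genes by strain shows the first Ang probe set and, by less, the dim second one lower in BALB/cJ. Rnase4 is level across strains.

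**Figure D1:**
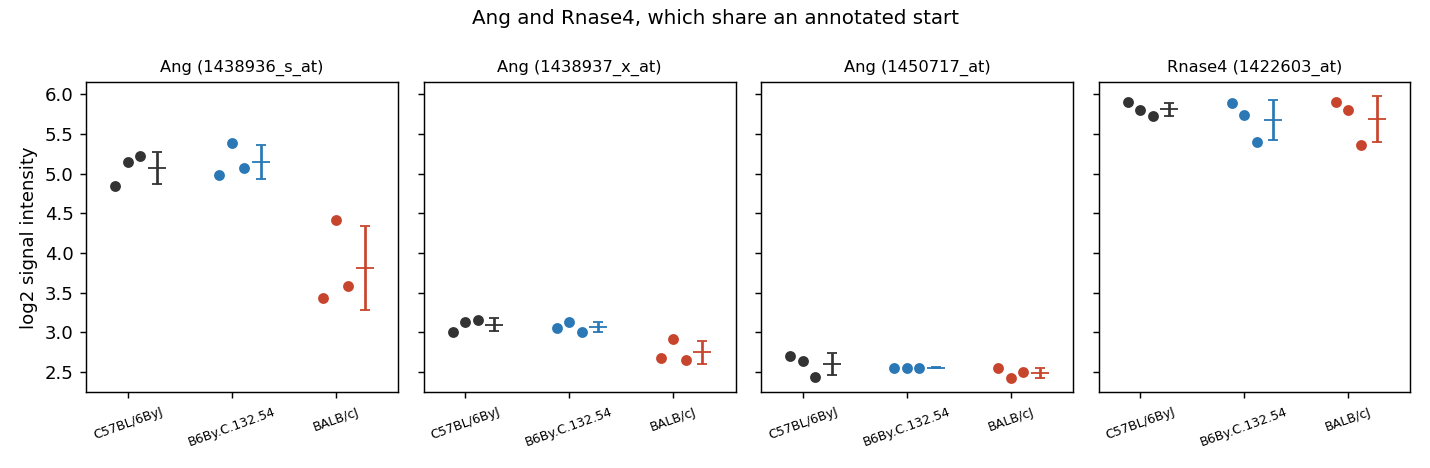
Log2 signal intensity of the 3 Ang probe sets and the Rnase4 probe set by strain; points are arrays in replicate order, and bars are the mean ± SD of 3 arrays. The first Ang probe set lies between 3.43 and 4.42 in BALB/cJ and between 4.84 and 5.39 in the other strains, while Rnase4 lies between 5.36 and 5.90 in all 3.

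Myh7, at the end of the stretch, encodes the slow beta myosin heavy chain of heart and skeletal muscle. Its probe set (1448553_at) read 6.06, 6.07 and 6.13 in C57BL/6ByJ, 5.80, 6.26 and 5.82 in B6By.C.132.54 and 5.21, 5.59 and 5.46 in BALB/cJ. The BALB/cJ pools lay below all others, by -0.60 ± 0.118 (SE), or 1.52-fold. A probe set that names both Myh7 and Myh6 (1448554_s_at), left out of the member counts, lay between 3.54 and 3.89 in BALB/cJ and between 4.03 and 4.54 in the others, and was not called. A second such probe set (1448827_s_at) was dim and overlapped, at 2.09 to 2.30 in BALB/cJ and 2.23 to 2.62 in the others. Myh6, the alpha chain, was dim on both of its own probe sets, with differences of 0.03 and -0.03. The summed intensity of the 5 dim heart muscle markers was 44 to 47 in C57BL/6ByJ, 45 to 51 in B6By.C.132.54 and 45 to 48 in BALB/cJ. Being dim, these markers had no room to fall, and the part of muscle RNA in the Myh7 values was not tested.

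**Figure D2:**
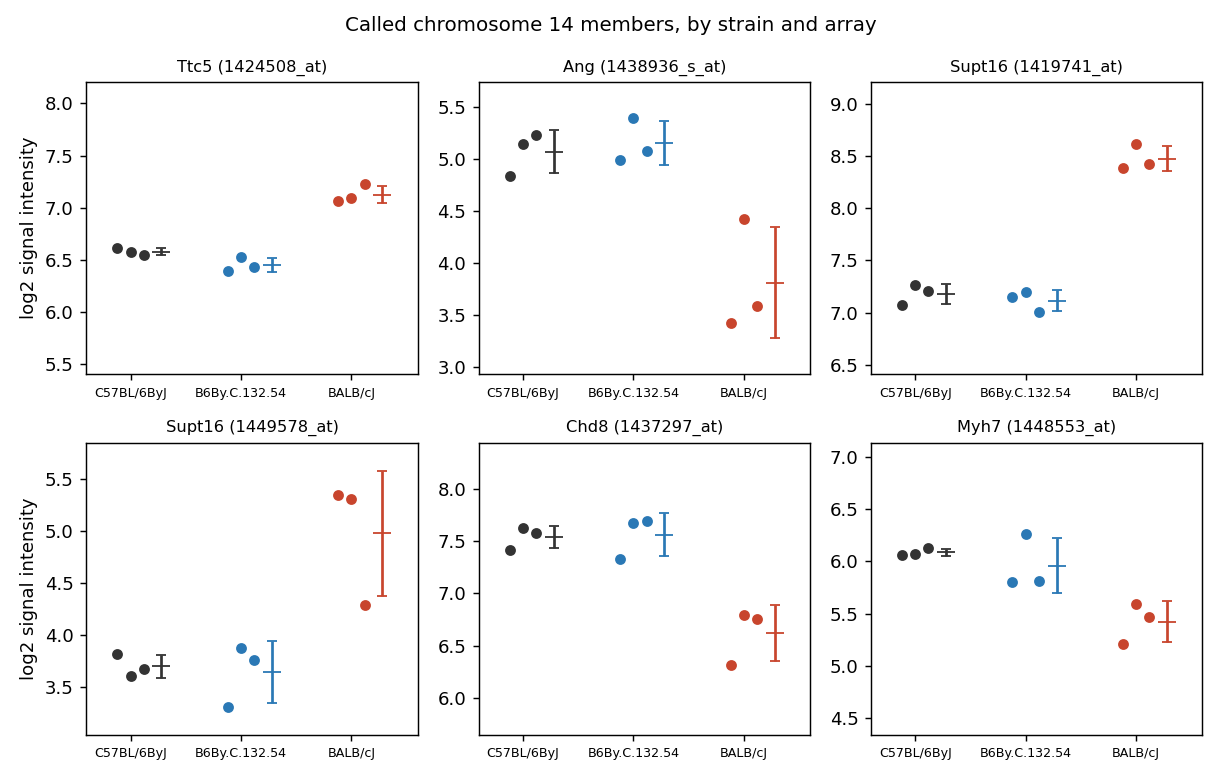
Log2 signal intensity of the 6 called member probe sets by strain, each panel spanning 2.8 log2 units; points are arrays in replicate order, and bars are the mean ± SD of 3 arrays. In each panel the 3 BALB/cJ arrays lie outside the range of the 6 other arrays, above it for Ttc5 and Supt16 and below it for Ang, Chd8 and Myh7.

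A probe set is called where limma gave a Benjamini-Hochberg adjusted p under 0.05 over all 45037 probe sets. Between BALB/cJ and the mean of the other strains, 6 of 99 member probe sets (6.06%) were called, where 1.79% of all probe sets were. Of these, 3 were higher in BALB/cJ (0.708% of all) and 3 lower (1.08% of all). By gene, 5 of 49 members (10.2%) had a called probe set, where 2.8% of all genes had one, and 44 did not. Against C57BL/6ByJ alone 6 were called (1.43% of all) and against B6By.C.132.54 alone 5 (1.28% of all), the exception being Myh7, which was called there too with the replicate number as a block. Both comparisons share the BALB/cJ arrays. Without BALB/cJ replicate 1 each count was 3, and so was the first without C57BL/6ByJ replicate 2 or 3. The Myh7 call against the mean was lost without BALB/cJ replicate 1 or 3 or any C57BL/6ByJ array, and that of the dimmer Supt16 probe set without BALB/cJ replicate 1 or 2. The contrast chose the stretch, so these shares are printed with no reading.

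The stretch was labelled as dense in strain differences, and 44 of its 49 measured members had no called probe set. Counting the 93 genes with probe sets from Wdhd1 to Myh7, members or not, the called members were Ttc5 (place 22), Ang (place 32), Supt16 (place 49), Chd8 (place 50) and Myh7 (place 93). Among genes that are not members, 5 of the 44 inside the stretch had a called probe set (11.4%), as did 1 of the 50 before it, 1 of the 50 after it and 12 of the 455 elsewhere on the chromosome (2.64%). The stretch was chosen along the gene order by BALB/cJ differences, so nothing is read from these shares either. The 5 inside were Ap5m1 (place 16, 1.07), Gm26782 (place 25, -1.02), Rpgrip1 (place 48, -5.73), Prmt5 (place 74, -0.60) and Ppp1r3e (place 85, -0.91), so that called genes, members or not, lay from place 16 to place 93. The 1 before it was Samd4, with 3 called probe sets close to the boundary, the lowest at -1.81. Gch1, directly before Wdhd1, differed by 0.08 and 0.04, and Ngdn, directly after Myh7, by 0.14 and -0.20.

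**Figure D3:**
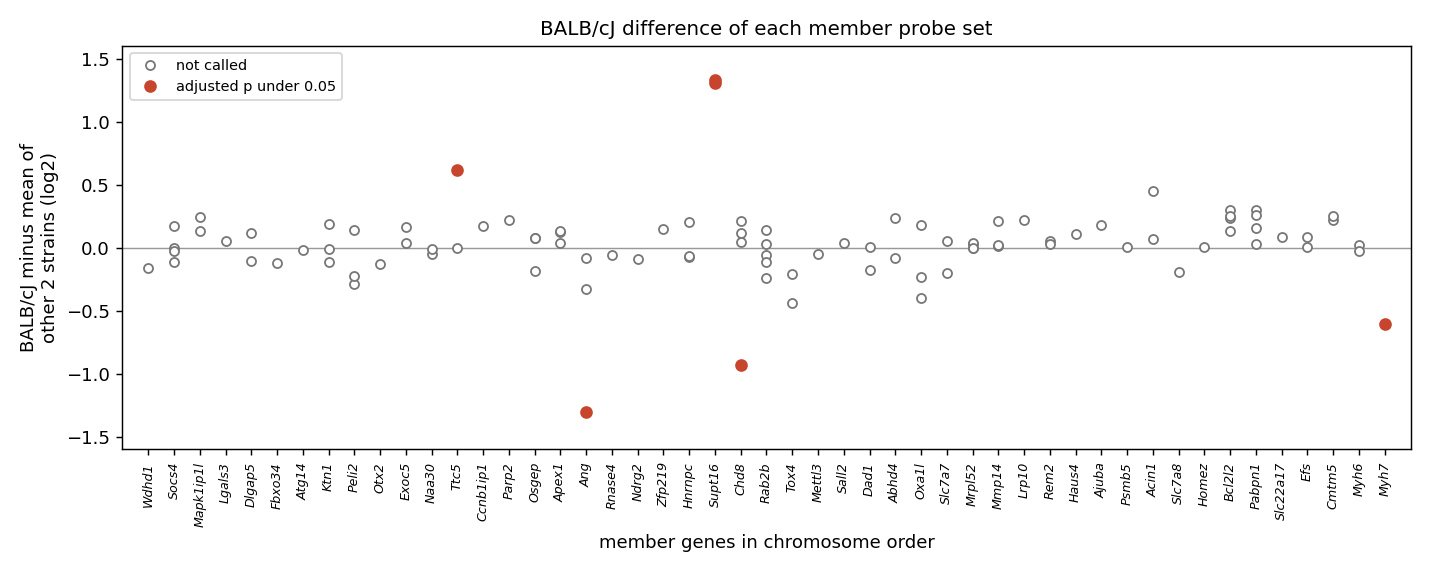
Log2 difference of BALB/cJ from the mean of the other strains (vertical axis) for each of the 99 member probe sets, in chromosome order of their genes. Filled points were called; they are Ttc5, Ang, Supt16 (2 points), Chd8 and Myh7, and all other points lie between -0.44 and 0.45.

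Of the 93 member probe sets that were not called, 8 still had all BALB/cJ arrays outside the range of the other 6, 5 above and 3 below. Together with the called ones this made 14 of 99 (14.1%), where 5.13% of all probe sets showed it. The stretch was chosen by these same BALB/cJ differences, so nothing is read from that share. Pabpn1, the nuclear poly(A)-binding protein gene, had 2 of them. Its brightest probe set (1422849_a_at) read 9.60, 9.65 and 9.64 in C57BL/6ByJ, 9.62, 9.75 and 9.62 in B6By.C.132.54 and 9.89, 9.83 and 10.00 in BALB/cJ, a difference of 0.26 ± 0.0723 (SE). With 16 added to each intensity, 1 Pabpn1 probe set was called. Its second (1422848_a_at) differed by 0.30, and its other probe sets by 0.03 and 0.15 with overlap. Acin1, which encodes a component of the apoptosis- and splicing-associated protein complex, had 1 probe set apart, at 5.50, 5.61 and 5.60 in C57BL/6ByJ, 5.62, 5.72 and 5.10 in B6By.C.132.54 and 6.15, 5.86 and 5.91 in BALB/cJ. Its brighter probe set differed by 0.07 with overlap.

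Oxa1l, which inserts proteins into the inner mitochondrial membrane, had probe sets that disagreed. The one apart (1423738_at) read 4.69, 4.51 and 4.54 in C57BL/6ByJ, 4.71, 4.49 and 4.53 in B6By.C.132.54 and 4.02, 4.26 and 4.27 in BALB/cJ, while the brightest of the 3 differed by 0.18 in the other direction. Oxa1l had a called probe set with dim probe sets left out, after quantile normalization and after centring each array on its median. Parp2 was 0.22 higher, at 6.32, 6.54 and 6.38 in BALB/cJ against 5.99 to 6.32 elsewhere, so that its lowest BALB/cJ array barely cleared the highest other one. Apex1 stayed close to 0: its 3 probe sets differed by 0.12, 0.04 and 0.13, and only the last had BALB/cJ outside the other arrays. Peli2, an E3 ligase of Toll-like receptor signalling, was 0.29 lower on its brightest probe set, with BALB/cJ at 4.79, 4.88 and 4.91 and the others from 4.98 to 5.28.

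The genes of chromatin and transcription were 8, among them Supt16, Chd8 and Ttc5, described above. Their 3 calls come from the contrast that chose the stretch, and 2.8% of all genes had a call, so nothing is read from that count. Tox4, a subunit of a phosphatase complex, differed by -0.44 and -0.21 on its probe sets, without being called. Sall2, Zfp219 and Homez, which encode transcription factors, differed by 0.04, 0.15 and 0.0045, but Homez was dim, at a mean of 2.56. Otx2, a homeobox gene of forebrain patterning and of the choroid plexus, was dim on every array, from 2.87 to 3.41.

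None of the 5 genes of RNA processing and modification was called, and their 13 probe sets ran from -0.19 to 0.45. Mettl3 read 6.63, 6.51 and 6.61 in C57BL/6ByJ, 6.38, 6.51 and 6.51 in B6By.C.132.54 and 6.36, 6.56 and 6.51 in BALB/cJ, with overlap. Osgep, the catalytic subunit of the KEOPS complex of transfer RNA modification, differed by -0.19, 0.08 and 0.08. The 3 genes of mitosis and meiosis, Dlgap5, Haus4 and Ccnb1ip1, were dim on all 4 probe sets.

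The 8 genes of signalling, ubiquitin ligase parts and survival had 19 probe sets between -0.29 and 0.30, none called. Bcl2l2, an anti-apoptotic relative of Bcl2, was higher on all 4 of its probe sets, by 0.13, 0.30, 0.24 and 0.25, with overlap of arrays in each. The 6 genes of membrane traffic and autophagy ran from -0.24 to 0.25. At the upper end was Cmtm5, whose probe sets differed by 0.22 and 0.25. Cmtm5 is known for its expression in oligodendrocytes; the summed intensity of 5 oligodendrocyte markers was 8836 to 9491 in C57BL/6ByJ, 7991 to 9626 in B6By.C.132.54 and 8956 to 9634 in BALB/cJ, and its part in the Cmtm5 values was not tested.

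In several other members the arrays of all strains overlapped. Psmb5, which carries the chymotrypsin-like activity of the proteasome, read 9.10, 9.18 and 9.27 in C57BL/6ByJ, 9.05, 9.17 and 9.20 in B6By.C.132.54 and 9.06, 9.26 and 9.18 in BALB/cJ. Mrpl52, a protein of the large mitochondrial ribosomal subunit, differed by at most 0.04 on any of its 4 probe sets. Dad1, a subunit of the oligosaccharyltransferase, differed by 0.0044 and -0.18. Slc22a17, which encodes the lipocalin 2 receptor and is abundant in brain, differed by 0.09, with arrays from 9.50 to 9.96. Ndrg2, an astrocyte gene, read 9.39 to 9.70 in BALB/cJ and 9.35 to 9.80 in the other strains. Lgals3, a galectin of activated microglia, was dim, from 3.04 to 3.47.

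The members not yet named had no called probe set. Wdhd1, a replisome factor of DNA replication and the first gene of the stretch, differed by -0.16 and its arrays lay between 4.68 and 5.18. Fbxo34, an F-box protein gene, differed by -0.12, with BALB/cJ at 7.37, 7.55 and 7.41 inside the range of the other arrays or just under it. Exoc5, a subunit of the exocyst, differed by 0.16 on its bright probe set, and Ktn1, the kinesin receptor kinectin, by 0.19, both with overlap. Among the membrane and matrix genes, Lrp10, a lipoprotein receptor relative, was 0.22 higher, with BALB/cJ at 7.13, 7.12 and 7.02 and the other arrays from 6.68 to 7.04. Mmp14, a membrane-bound matrix metalloproteinase gene, differed by 0.01, 0.02 and 0.22 on its 3 probe sets. Slc7a8, a neutral amino acid exchanger gene, differed by -0.19, and Rem2, a small GTPase gene of calcium channel control, by 0.06 and 0.03. Abhd4, a lipid hydrolase gene, had probe sets at 0.23 and -0.08. Socs4, an inhibitor of cytokine signalling, differed by 0.17 on its brightest probe set and was dim on its other 3. Ajuba, a LIM-domain adaptor gene, was dim, at 3.00 to 3.57.

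Of the 49 measured members, 29 had several probe sets. In 15 of these all probe sets lay on the same side of 0 in BALB/cJ, and in 14 they lay on both sides. The median distance between a gene's highest and lowest difference was 0.23. It exceeded 0.5 in 4 genes: Ang, Chd8, Ttc5 and Oxa1l. No member had probe sets called in opposite directions. Supt16 was the 1 called gene with more than 1 called probe set.

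The comparison of B6By.C.132.54 with C57BL/6ByJ, which did not enter the choice of the stretch, asks whether these genes differ between the strains that share the background. By limma 0 of the 99 member probe sets passed, as did 0% of all 45037. The lowest adjusted p of a member was 0.915. At an unadjusted p under 0.05 there were 5 member probe sets (5.05%), where 3.89% of all probe sets passed. The arrays of the strains did not overlap in 8 (8.08%), where 6.62% of all did not. The first kind were both Mapk1ip1l probe sets, 2 of Rab2b and 1 of Efs, an adaptor gene of Src kinase signalling. That Efs probe set was dim, at a mean of 3.36. Those without overlap were 1 each of Atg14, Otx2, Ttc5, Hnrnpc, Rab2b, Abhd4, Efs and Myh6, and Otx2 and Myh6 were the ones higher in B6By.C.132.54. Atg14, which directs the lipid kinase complex of autophagy, read 5.75, 5.93 and 5.79 in C57BL/6ByJ and 5.73, 5.64 and 5.69 in B6By.C.132.54, against 5.74, 5.73 and 5.73 in BALB/cJ. The median difference was -0.04 over the members and -0.01 over all probe sets. The 95% interval of the difference lay within 0.5 of 0 in 82 member probe sets and within 1 of 0 in all 99.

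The genes that stood apart in BALB/cJ had intervals around 0 here. The interval of B6By.C.132.54 minus C57BL/6ByJ ran from -0.28 to 0.15 for the brighter Supt16 probe set and from -0.60 to 0.49 for the other. It ran from -0.29 to 0.34 for Chd8, from -0.31 to 0.05 for Ttc5, from -0.42 to 0.58 for Ang and from -0.43 to 0.17 for Myh7. Side by side with these, the BALB/cJ minus C57BL/6ByJ differences were 1.30, 1.28, -0.92, 0.55, -1.26 and -0.67. These probe sets were picked for that size and both sets of differences use the same C57BL/6ByJ arrays, so the contrast between them is a description. The arrays of B6By.C.132.54 and C57BL/6ByJ overlapped in all of these but Ttc5, where those of B6By.C.132.54 lay lower, farther from BALB/cJ. In all 6 the BALB/cJ arrays lay outside the other 6 arrays, so the side within each replicate number was fixed in advance. Within a replicate number, the smallest difference of BALB/cJ from another strain was -0.35, for Myh7 in replicate 3. The largest was 2.03, for the dimmer Supt16 probe set in replicate 1.

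**Figure D4:**
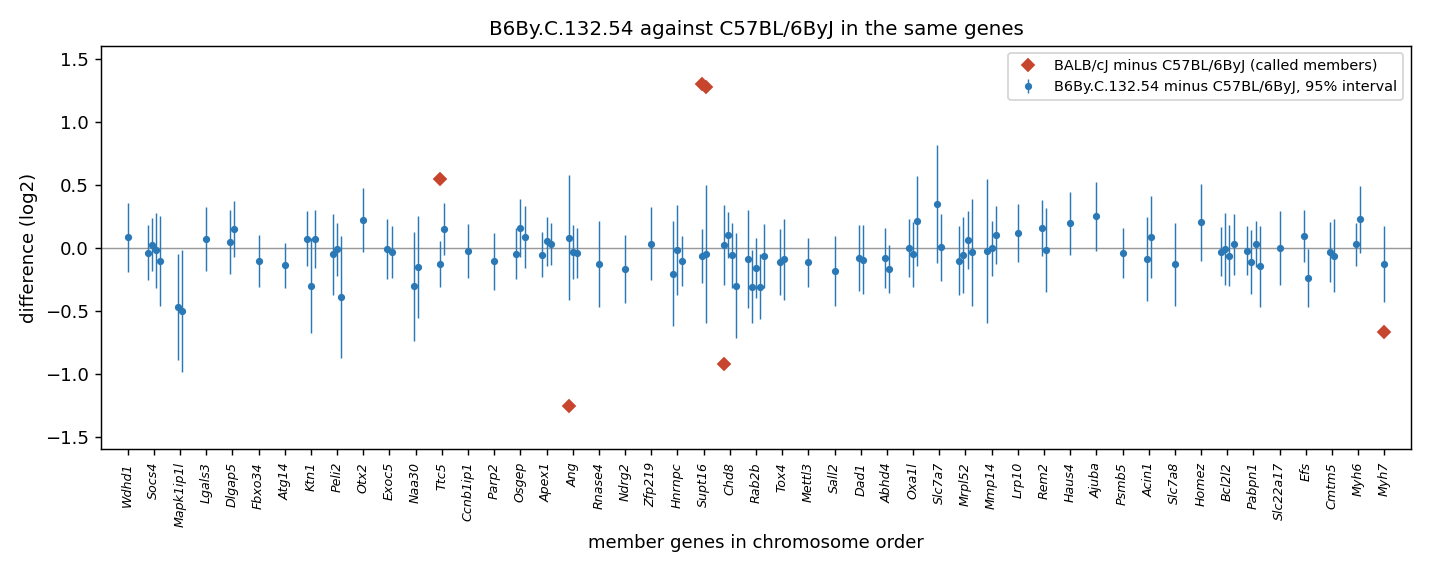
Log2 difference of B6By.C.132.54 from C57BL/6ByJ for each member probe set in chromosome order (circles, with 95% intervals from limma), and of BALB/cJ from C57BL/6ByJ for the 6 called probe sets (diamonds). The circles lie between -0.50 and 0.35, and the diamonds between -1.26 and 1.30; the diamonds were picked for their size.

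The members with the largest B6By.C.132.54 differences were others. Mapk1ip1l, a proline-rich protein gene, read 5.20, 4.59 and 4.59 in C57BL/6ByJ, 4.79, 4.03 and 4.06 in B6By.C.132.54 and 4.89, 4.52 and 4.62 in BALB/cJ (1433879_a_at). Its difference was -0.50 ± 0.219 (SE; limma adjusted p = 0.915, unadjusted p = 0.0437), and -0.30 without C57BL/6ByJ replicate 1. Replicate 1 was the highest array in every strain, so leaving it out of C57BL/6ByJ alone unbalances the comparison. With the replicate number as a block the SE was 0.100 (limma adjusted p = 0.658). Its second probe set read 4.81, 4.75 and 5.40 in C57BL/6ByJ, 4.46, 4.88 and 4.22 in B6By.C.132.54 and 5.03, 5.09 and 4.87 in BALB/cJ, a difference of -0.47 ± 0.191. With the block the SE of this second probe set was 0.193. B6By.C.132.54 and C57BL/6ByJ arrays overlapped in both. Rab2b, a small GTPase gene of Golgi traffic, measured -0.31 on 2 of its 5 probe sets, with the other 3 between -0.16 and -0.07. The one ranked first (1436923_at) read 6.03, 5.84 and 6.16 in C57BL/6ByJ, 5.64, 5.84 and 5.62 in B6By.C.132.54 and 5.56, 6.03 and 5.81 in BALB/cJ (limma adjusted p = 0.915).

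The rank of Peli2, Naa30 and Slc7a7 rested on 1 array, and the Peli2 and Slc7a7 probe sets were dim, at means of 3.94 and 3.44. The Peli2 probe set 1437181_at read 4.14, 4.41 and 4.09 in C57BL/6ByJ and 3.99, 4.10 and 3.37 in B6By.C.132.54, against 4.08, 3.97 and 3.33 in BALB/cJ. Naa30, the catalytic subunit of an N-terminal acetyltransferase, read 6.83, 6.74 and 6.84 in C57BL/6ByJ, 6.88, 6.69 and 5.92 in B6By.C.132.54 and 6.72, 6.57 and 6.52 in BALB/cJ. Slc7a7, a cationic amino acid exchanger gene, read 3.41, 3.35 and 3.25 in C57BL/6ByJ, 3.25, 3.50 and 4.29 in B6By.C.132.54 and 3.48, 3.25 and 3.21 in BALB/cJ. In each, B6By.C.132.54 replicate 3 was the extreme array of its strain. Without it the differences went from -0.39 to -0.17 for Peli2, from -0.31 to -0.02 for Naa30 and from 0.35 to 0.04 for Slc7a7.

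Genes elsewhere in the genome that work with the members were compared as well, from a list of 65 that covers the partners of Mettl3, Supt16, Chd8, Osgep, Psmb5, Dad1, Slc7a7 and Slc7a8, Haus4, Atg14, Exoc5, Apex1 and Parp2, Naa30, Tep1 and Acin1. Of these, 62 were measured, each by its brightest probe set. In BALB/cJ 1 of the 62 was called (1.61%), where 1.68% of all genes were. This was Haus7, a subunit of the augmin complex of the mitotic spindle with Haus4, which was 0.62 ± 0.104 (SE) higher at a mean of 5.04 against 4.44 in C57BL/6ByJ and 4.41 in B6By.C.132.54 (limma adjusted p = 0.00944). Without BALB/cJ replicate 2 that call was lost. The 62 partner differences ran from -0.47 to 0.62 with a median of -0.002, and none passed in the comparison of B6By.C.132.54 with C57BL/6ByJ, where 0% of all genes did. Ssrp1, the other FACT subunit, had no probe set of its own in the annotation used here.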

How the data were processed

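The samples were 9 pools of brain hemispheres, 3 per strain, and the deposited table gives 1 linear signal intensity per probe set and array. Total RNA (7 µg) was turned into biotin-labelled cRNA for Affymetrix arrays, per the labels' protocols. GCOS and RMA are named in the submitters' processing notes without a version or order, so background treatment and the scale of the authors' normalization of these intensity values are not given in the sources used here.

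Here 64 control probe sets were left out and log2 of the intensity was fitted with limma 3.58.1 (R 4.3.3) over all 9 arrays, with strain as the factor and Benjamini-Hochberg adjustment over all 45037 probe sets; the threshold was 0.05. The fit was tested on simulated data. Probe sets carry 1 gene symbol (34945), several (932) or none (9160) in the platform annotation; symbols were updated by gene ID, and only the first kind was named. Gene order and promoters come from RefSeq on GRCm38.p6; the array table names no build.

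The members and lists were chosen with earlier results of these data known. By rule, values per array were given for members with a probe set called in both BALB/cJ comparisons, the 5 with the largest B6By.C.132.54 difference, and any with probe sets called in opposite directions; Myh7 and other members were added after their values were seen. A gene's representative probe set is its brightest.

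The design text says that the work ran in 3 batches, but no label ties a replicate number to a batch. Deviations from the strain mean correlated at 0.147 to 0.542 between same-numbered arrays of different strains (9 pairs, all probe sets) and at -0.458 to 0.153 between others. Pairs of replicate 1 stood out, at 0.519 to 0.542. Replicates 2 and 3 were less clearly apart, at 0.147 to 0.266 within a number and -0.007 to 0.153 across. The numbers were taken to pair the arrays, and a fit with the number as a block was run. Pools are the replicates, and the limma p-values set a strain difference against the spread between pools. That spread is estimated over the 3 strains together and drawn by limma toward that of all 45037 probe sets. Of 99 member probe sets, 45 had 1 value on at least 2 arrays. The number of arrays limits the precision.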

Additional observations from a re-analysis of the deposited data

How the results depend on the processing

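The count of member probe sets called between B6By.C.132.54 and C57BL/6ByJ stayed at 0 under all 17 alternatives, arrays left out included (range 0 to 0). The count for BALB/cJ against the mean of the others was 6, and 4 to 6 with 1 array left out; with the replicate block it was 7, with a second Ang probe set, while calls over all probe sets went from 804 to 1191. It was also 7, with Oxa1l, with dim probe sets left out, after quantile normalization and after median centring, and 5 with 16 added to each intensity, where Pabpn1 was gained. For BALB/cJ against C57BL/6ByJ (6) the count was 3 to 6 with 1 array left out, falling to 3 without BALB/cJ replicate 1 or C57BL/6ByJ replicate 2 or 3. It was 3 with 16 added to each intensity and 4 with only the arrays compared in the fit. With genes as the mean over their probe sets it was 3, where 49 genes and not 99 probe sets are counted. For BALB/cJ against B6By.C.132.54 (5) it was 3 to 5 with 1 array left out (3 without BALB/cJ replicate 1), 3 with the added intensity, 3 with only the arrays compared in the fit, and 2 with genes as means. The count of called partners was 0 to 1 with 1 array left out. No difference of a named member that was called changed its sign. The Ttc5, Ang and brighter Supt16 calls against the mean of the others held under all 16 alternatives. Against each strain alone, Ang was not called with 16 added to each intensity or with only the arrays compared in the fit. With genes as the mean over their probe sets, the differences shrank from 0.612 to 0.305 for Ttc5 and from -1.3 to -0.571 for Ang. The Myh7 call was lost in 6 (without BALB/cJ replicate 1 or 3, without any C57BL/6ByJ array, and with the added intensity), the dimmer Supt16 call in 3 (without BALB/cJ replicate 1 or 2, and with the added intensity), and the Chd8 call in 1 (the mean over its probe sets). The replicate block added 2 calls of members, the second Ang probe set and Myh7 against B6By.C.132.54, and changed no other. The causes were not tested.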
